A study of Mus musculus with 8 samples.

Results

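Respiratory complex I is assembled from nuclear and mitochondrial gene products, and the expression of its nuclear genes was followed here in mouse colon epithelial organoids exposed to fecal supernatants. The genes were taken by symbol, as all Ndufa, Ndufb, Ndufc, Ndufs and Ndufv genes with a number and all Ndufaf genes, pseudogenes left out. The rule found 44 of the 29234 genes in the table, namely 7 core subunits, 30 accessory subunits and 7 assembly factors. Of these, 42 passed the filter on low counts, with 12729 genes in all. The organoids were derived from crypts of WT mouse colon and were given microbe-free fecal supernatant (FS) at 4 mg/mL. The FS came either from healthy mice (FS_CTR, 4 samples) or from mice with dysbiosis after dextran sodium sulfate colitis (FS_DSS, 4 samples), and the labels give a time of 5 days for every sample. All 8 samples thus had FS, and no untreated organoids were analysed here. The study's methods name male C57BL/6N mice and pooled fecal pellets. The labels do not say whether the 4 samples of a group were separate cultures or animals, so the p-values speak only of the scatter among these 8 libraries, part or all of which may be technical.

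Complex I is the entry point of electrons from NADH into the mitochondrial respiratory chain. Its peripheral arm in the matrix oxidises NADH and passes the electrons through iron-sulfur clusters to ubiquinone, while its membrane arm pumps protons. Core subunits carry out these reactions, accessory subunits surround and stabilise them, and assembly factors help to build the complex without remaining in it. Differentiated colonocytes depend on mitochondrial oxidation, in particular of butyrate made by the microbiota.

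Library totals ran from 18968416 to 27035243 counts. FS_CTR replicates 3 and 4 stood apart: mitochondrially encoded transcripts took 38.7% and 33.3% of their counts, against 2.83% to 6.98% in the other 6 libraries, and their scaling factors by TMM, which aligns the bulk of genes between libraries, were 0.64 and 0.68, against 1.13 to 1.18. Values without them are given beside results that they moved. The markers matched the labelled tissue, as 7 epithelial genes (Epcam, Cdh1, Krt8 and others) summed to between 14174 and 18101 CPM in every library (counts relative to the TMM-scaled library size). The 4 immune genes summed to at most 5.07 CPM, the 5 fibroblast and muscle genes to at most 4.61 CPM and the 3 endothelial genes to at most 1.40 CPM. Stem cell markers were lower in FS_DSS in 5 of 5 cases, 3 of them with an unadjusted p under 0.05. They summed to 114.6 to 267 CPM in FS_CTR and 66.2 to 144 CPM in FS_DSS. Their Log2(FC) without FS_CTR replicates 3 and 4 ran from -3.02 (Smoc2) to -0.60 (Lrig1), against -2.57 and -0.26 with all libraries. Proliferation markers summed to 204 to 452 CPM in FS_CTR and 129 to 354 CPM in FS_DSS. Their fitted values were lower in 5 of 5 and none at that p. Leaving out FS_CTR replicates 3 and 4, their Log2(FC) ran from -0.93 (Mki67) to -0.40 (Pcna), against -0.40 and -0.28 with all libraries. Of the 6 colonocyte markers 5 were negative, with a median Log2(FC) of -0.46. Only the chloride exchanger Slc26a3 was lower at that p (-0.83, and -0.75 without FS_CTR replicates 3 and 4). Without these libraries Car1, Car4, Aqp8, Ceacam20 and Krt20 were at -0.13, -0.39, -1.45, 0.16 and 0.44, against -0.31, -0.56, -1.20, -0.36 and 0.09. The sums of the colonocyte markers overlapped, at 4067 to 6805 CPM in FS_CTR and 3167 to 5432 CPM in FS_DSS. The 3 tuft cell markers were negative with a median of -1.10 and 1 of them at that p, and summed to 4.30 to 6.59 CPM in FS_CTR and 1.90 to 3.64 CPM in FS_DSS. Goblet markers were negative in 2 of 6 cases and enteroendocrine markers in 0 of 3, with all libraries. Of the goblet markers, Fcgbp was higher at an unadjusted p under 0.05 (Log2(FC) 0.49) and none was lower. When FS_CTR replicates 3 and 4 were left out, Muc2, Spdef and Agr2 were at -0.73, -0.96 and -1.13. Tff3, Fcgbp and Clca1 were then at 0.28, 0.30 and 0.69, and Chga, Chgb and Neurod1 at 0.05, -0.35 and -0.03. The part of these cell types in the differences below was not tested. In bulk RNA, fewer cells of a type and less RNA per cell cannot be told apart.

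The nuclear complex I genes were lower in organoids exposed to FS_DSS, on the TMM scale, in nearly all cases. Of the 42 members tested, 40 had a negative Log2(FC), and their median was -0.53, against -0.02 over all genes, of which 52.5% were negative. With edgeR's quasi-likelihood test, 34 members were lower at an unadjusted p under 0.05, while 13.4% of all genes tested were, and no member was higher, against 10.6% of all genes. At the study's thresholds (p under 0.05 and a Log2(FC) of at least 0.58 in size), 14 members were lower, against 6.46% of all genes, and 0 were higher, against 2.56%. The study set these thresholds on DESeq2 results, while here they were applied to the edgeR fit. For 20 members all 4 FS_DSS libraries lay below all 4 FS_CTR libraries, as for 7.58% of all genes. The opposite arrangement occurred in none of the members and in 7.41% of all genes.

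No single member reached an adjusted p under 0.05 in this fit, and neither did any of the 12729 genes. The count of such members depended on the test. DESeq2 gave 26 lower members (6.01% of all genes), limma-voom gave 0 with 31 members at an unadjusted p under 0.05 (12% of all genes), and edgeR blocked on replicate number gave 6 (1.41% of all genes). Leaving out FS_CTR replicate 1 alone gave 30 (5.34% of all genes). Without FS_CTR replicates 3 and 4, 41 of 42 members stayed negative (49.5% of all genes) with a median of -0.34. Then 17 were lower at an unadjusted p under 0.05 (10.9% of all genes) and only Ndufa5 and Ndufb5 met the study's thresholds (5.35% of all genes).

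**Figure D1:**
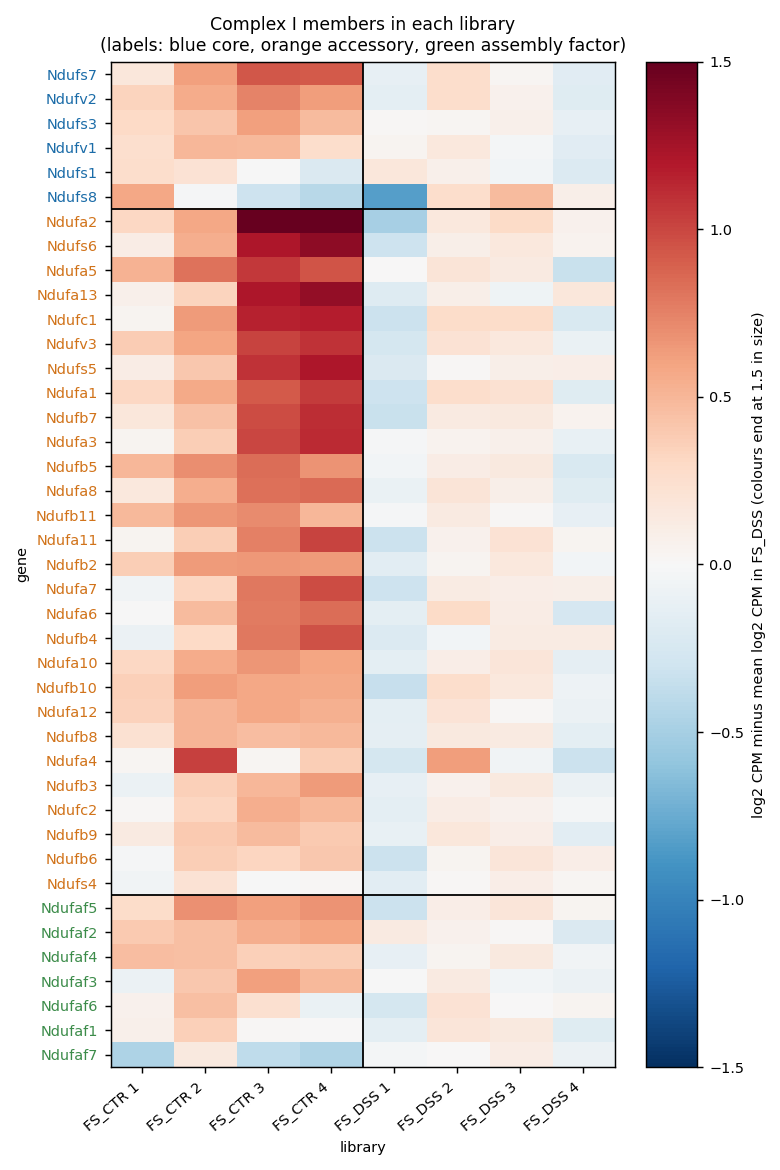
Heat map of 41 tested complex I genes (rows, ordered by Log2(FC) within core, accessory and assembly factor classes) in the 8 libraries (columns); the colour is log2 CPM minus the gene's mean log2 CPM in FS_DSS, and ends at 1.5 in size. Red prevails in all 4 FS_CTR columns, of these palest in FS_CTR replicate 1 (median over members 0.16) and deepest in FS_CTR replicates 3 and 4 (0.63 and 0.61). Pale red also prevails in FS_DSS replicates 2 and 3 (0.13 and 0.11).

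The FS_CTR libraries lay above the FS_DSS mean to different degrees. Set against that mean, the median member was higher by 0.16 in FS_CTR replicate 1, 0.45 in replicate 2, 0.63 in replicate 3 and 0.61 in replicate 4 on the log2 scale. The FS_DSS libraries themselves were at -0.15, 0.13, 0.11 and -0.098, so that FS_CTR replicate 1 lay close to FS_DSS replicates 2 and 3. Members above the FS_DSS mean numbered 34 in FS_CTR replicate 1, and 41 and 37 in FS_DSS replicates 2 and 3. Summed over the members, the CPM was 1939, 2331, 2731 and 2732 in the FS_CTR libraries and 1554, 1868, 1801 and 1597 in the FS_DSS libraries. The lowest FS_CTR sum thus lay above the highest FS_DSS sum, by a small margin. As a share of all counts, without the TMM scaling, the members took 0.229%, 0.266%, 0.175% and 0.185% in FS_CTR and 0.176%, 0.21%, 0.209% and 0.185% in FS_DSS. On that scale the groups overlapped, and the 2 libraries rich in mitochondrial transcripts were no higher than FS_DSS. Scaled by library totals alone, the median of all genes moved to 0.31 and that of the members to -0.14, or -0.45 relative to all genes, with 30 members negative (20.5% of all genes) and 1 lower at an unadjusted p under 0.05 (1.4% of all genes). Libraries with the same number, compared one by one on the TMM scale, gave 40, 41, 38 and 37 members lower in FS_DSS, with medians of -0.31, -0.34, -0.54 and -0.71. Of all genes, 49.8%, 51.3%, 49.5% and 51.6% were lower in these pairs.

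Among the core subunits, 6 of 7 had a negative Log2(FC), 5 were lower at an unadjusted p under 0.05, and the median was -0.37. In the NADH-oxidising module, Ndufv2 carries an iron-sulfur cluster next to the flavin. It measured 64.0, 74.4, 84.8 and 78.0 CPM in FS_CTR and 45.8, 60.6, 52.9 and 44.6 CPM in FS_DSS. All FS_DSS libraries lay below all FS_CTR libraries (Log2(FC) -0.56, SE 0.13, edgeR adjusted p 0.0791). Its partner Ndufv1, which binds NADH and the flavin, measured 118, 140, 138 and 118 CPM in FS_CTR and 102, 110, 96.4 and 87.6 CPM in FS_DSS. These groups did not overlap either (Log2(FC) -0.37, SE 0.10, adjusted p 0.0958). Ndufs1, the largest subunit, holds several iron-sulfur clusters of the same module. Its CPM was 83.9, 81.3, 69.7 and 60.4 in FS_CTR and 78.4, 73.8, 68.0 and 60.7 in FS_DSS. The ranges were nearly the same, and the difference was below its error (Log2(FC) -0.07, SE 0.13, adjusted p 0.739). Its lowest FS_CTR values were in replicates 3 and 4, and without them the Log2(FC) was -0.23.

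In the module that reduces ubiquinone, Ndufs3 measured 62.8, 68.3, 78.1 and 70.8 CPM in FS_CTR and a narrow 51.8, 52.0, 54.0 and 47.0 CPM in FS_DSS. No library of one group entered the range of the other (Log2(FC) -0.45, SE 0.09, adjusted p 0.0784). Ndufs7, which holds the last iron-sulfur cluster before ubiquinone, had the most negative value of the core, with 49.8, 67.8, 84.9 and 84.0 CPM in FS_CTR and 40.8, 53.1, 45.3 and 39.6 CPM in FS_DSS. FS_CTR replicate 1 lay within the FS_DSS range (Log2(FC) -0.68, SE 0.18, adjusted p 0.0890), and without FS_CTR replicates 3 and 4 the Log2(FC) was -0.39. Ndufs8, which carries iron-sulfur clusters of this module, was counted at low values throughout, namely 5.17, 3.42, 2.80 and 2.60 CPM in FS_CTR and 1.95, 4.17, 4.81 and 3.68 CPM in FS_DSS. The groups overlapped fully (Log2(FC) 0.05, SE 0.33, adjusted p 0.937), and the sign turned without FS_CTR replicates 3 and 4 (-0.23).

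All 28 tested accessory subunits had a negative Log2(FC), with a median of -0.58, and 25 were lower at an unadjusted p under 0.05. Ndufa4 and Ndufa4l2 were placed in this class by symbol, and the tested Ndufa4 was counted in neither arm. The 8 of the peripheral arm had a median of -0.67 and the 19 of the membrane arm a median of -0.58. Without FS_CTR replicates 3 and 4 these medians were -0.38 and -0.30. With offsets for transcript length, described below, they were -0.34 and -0.22. The accessory subunits supplied 13 of the 14 members past the study's thresholds, the other being Ndufs7. The 6 with the smallest p were Ndufb11, Ndufb5, Ndufb2, Ndufa5, Ndufa12 and Ndufa10.

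Ndufb11, an X-linked subunit of the distal membrane arm (chromosome X, 20481563 to 20484457, minus strand, GRCm39), is required for assembly of that arm. It measured 58.5, 66.2, 68.3 and 59.0 CPM in FS_CTR and 41.3, 45.9, 42.2 and 38.3 CPM in FS_DSS. The lowest FS_CTR library was well above the highest FS_DSS library, and the Log2(FC) of -0.59 was -0.57 without FS_CTR replicates 3 and 4. Ndufb5, also of the membrane arm (chromosome 3, 32791139 to 32805715, plus strand), measured 63.0, 72.6, 80.1 and 71.4 CPM in FS_CTR and 43.6, 48.5, 49.5 and 38.3 CPM in FS_DSS. The groups were again apart (Log2(FC) -0.67, SE 0.11, edgeR adjusted p 0.0782). Ndufb2, a small membrane arm subunit, measured 36.2, 43.3, 43.9 and 43.6 CPM in FS_CTR and 25.0, 28.7, 31.3 and 27.2 CPM in FS_DSS. There was no overlap (Log2(FC) -0.57, SE 0.10, adjusted p 0.0784), although FS_CTR replicate 1 was below the other 3 FS_CTR libraries.

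Ndufa5, on the matrix side of the peripheral arm, had a mean of 35.1 ± 5.43 CPM (SD, n = 4) in FS_CTR and 19.7 ± 3.00 CPM in FS_DSS, the most negative Log2(FC) of these 6 (-0.83, SE 0.15), and the groups did not overlap. Ndufa12, a peripheral arm subunit that takes the place of the assembly factor Ndufaf2 late in assembly, had 73.7 ± 5.04 CPM in FS_CTR and 52.5 ± 5.82 CPM in FS_DSS (Log2(FC) -0.49, SE 0.10). Ndufa10, which has the fold of a nucleoside kinase, had 98.1 ± 9.92 and 68.0 ± 8.08 CPM (Log2(FC) -0.53, SE 0.11). Blocked on replicate number, the 6 members with an edgeR adjusted p under 0.05 were Ndufb11, Ndufb5 and Ndufb2 (0.0397 each), Ndufa10 (0.0441), and Ndufa12 and Ndufb10 (0.0478 each). Over the alternatives tried, the adjusted p ranged from 1.19e-05 to 0.549 for Ndufb11, from 4.01e-05 to 0.439 for Ndufb5, from 0.000408 to 0.58 for Ndufb2, from 0.00271 to 0.659 for Ndufa10 and from 0.00184 to 0.723 for Ndufa12. Ndufb10, named because it is one of the 6, had an adjusted p of 0.0911 without the block and 0.018 with DESeq2.

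**Figure D2:**
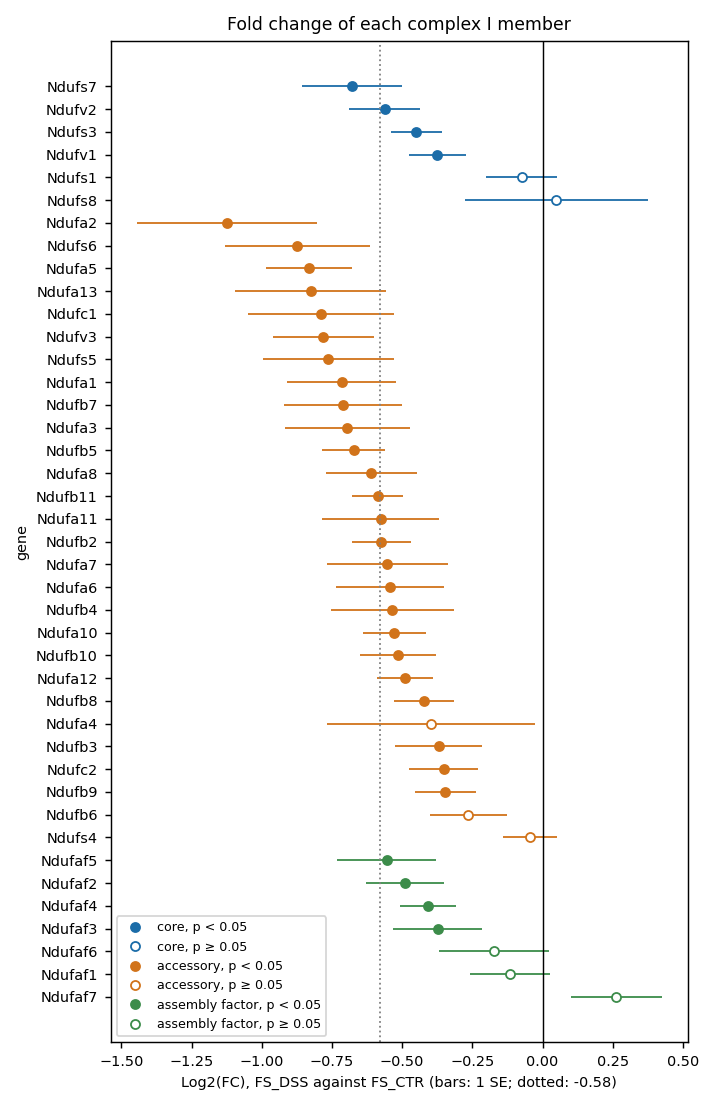
Log2(FC) of FS_DSS against FS_CTR for 41 tested members (rows, ordered as in the heat map), with bars of 1 SE; filled points have an unadjusted p under 0.05 and open points do not, and the dotted line marks -0.58. All 28 accessory subunits lie left of 0, while Ndufs8 and Ndufaf7 lie right of it.

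The 3 accessory subunits with the largest p were Ndufs4, Ndufa4 and Ndufb6. Ndufs4, whose loss in mice gives a model of Leigh syndrome, was 36.5 ± 3.14 CPM in FS_CTR and 35.4 ± 2.63 CPM in FS_DSS (SD, n = 4), a difference smaller than the spread (Log2(FC) -0.04, SE 0.10). Ndufb6 was 39.1 ± 4.97 and 32.5 ± 4.72 CPM (Log2(FC) -0.26, SE 0.14, and -0.17 without FS_CTR replicates 3 and 4), with overlapping groups, and an unadjusted p of 0.0866 by edgeR, which was 0.0111 with the replicate block and 0.0228 without FS_CTR replicate 1. Ndufa4, now assigned to complex IV, was at 0.542 ± 0.194 and 0.418 ± 0.14 CPM, too low to show a difference of this size. It had 5 to 25 counts per library. Ndufa9, which stabilises the junction of the arms, is listed at 0 in all 8 libraries, and Ndufa4l2, a paralog of Ndufa4 known from hypoxia, had 2 counts in total, both in FS_CTR. These last 2 did not pass the filter on low counts. The table uses older gene symbols, and whether reads of Ndufa9, Ndufa4 and the low core subunit Ndufs8 were assigned to other entries was not tested.

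The members differed in how far they rested on FS_CTR replicates 3 and 4. Leaving both out moved the Log2(FC) of 18 members by less than 0.1, among them Ndufb11, Ndufb2, Ndufb5, Ndufa12, Ndufa10 and Ndufv1. For 12 members, all accessory subunits, the Log2(FC) came up by at least 0.3. Ndufa2, a peripheral arm subunit with a thioredoxin-like fold and the most negative value of all, is the clearest case and was chosen after its values were seen. It measured 34.3, 41.4, 83.6 and 88.0 CPM in FS_CTR and 19.6, 30.9, 33.7 and 28.9 CPM in FS_DSS. FS_CTR replicates 1 and 2 were just above FS_DSS, replicates 3 and 4 at more than any other library, and the Log2(FC) of -1.12 (SE 0.32, edgeR adjusted p 0.0990) was -0.42 without the latter. Ndufa13 (Log2(FC) -0.83 and -0.20 without them), Ndufs6 (-0.87 and -0.33), Ndufs5 (-0.76 and -0.26) and Ndufa3 (-0.70 and -0.21) followed the same course. Consequently the median of the accessory class went from -0.58 to -0.34 without these libraries, while that of the core went from -0.37 to -0.36 and that of the assembly factors from -0.37 to -0.26. The order of the classes was thus not the same in both fits, and differences between classes were not tested.

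**Figure D3:**
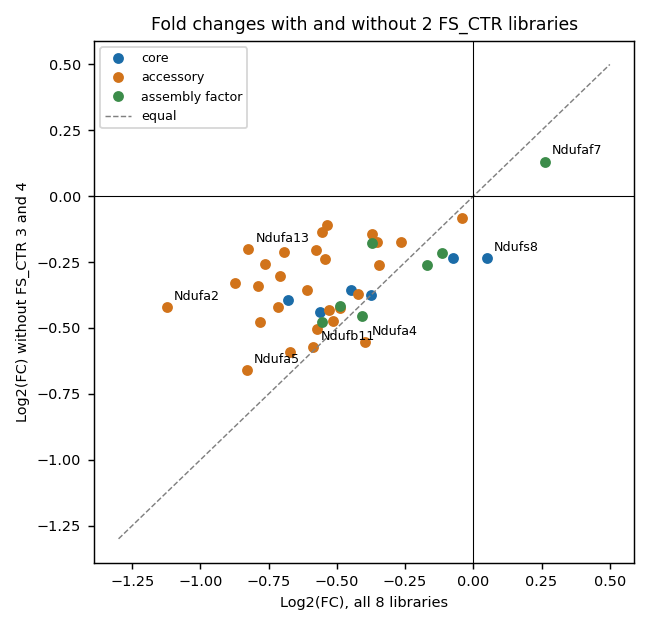
Log2(FC) of 41 members with all 8 libraries (horizontal axis) and without FS_CTR replicates 3 and 4 (vertical axis), coloured by class, with the dashed line at equal values. Ndufb11 lies on the line (-0.59 and -0.57), whereas Ndufa2 (-1.12 and -0.42) and Ndufa13 (-0.83 and -0.20) lie far above it; only Ndufaf7 is above 0 without the 2 libraries.

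**Figure D4:**
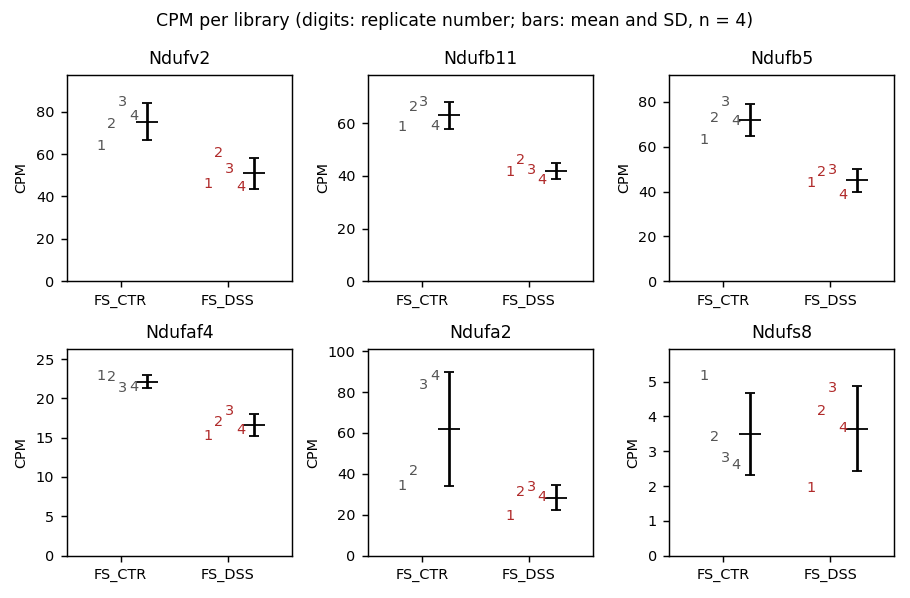
CPM of 6 members in each library, with digits for the replicate number and bars for the mean and SD (n = 4 per group). The FS_DSS libraries lie below all FS_CTR libraries for Ndufv2, Ndufb11, Ndufb5, Ndufaf4 and Ndufa2, with FS_CTR replicates 3 and 4 far above replicates 1 and 2 for Ndufa2, and the groups overlap for Ndufs8.

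Per kilobase of transcript the assembly factors were among the lower members, and 6 of 7 had a negative Log2(FC), with a median of -0.37. Of these, 4 were lower at an unadjusted p under 0.05, none at the study's thresholds. Ndufaf4, which acts with Ndufaf3 on the ubiquinone module, measured 22.9, 22.8, 21.3 and 21.4 CPM in FS_CTR and 15.2, 17.0, 18.4 and 16.0 CPM in FS_DSS. FS_CTR was uniform over its 4 libraries, the mitochondrial-rich ones included, and lay above FS_DSS throughout (Log2(FC) -0.41, SE 0.10, edgeR adjusted p 0.0875, and -0.45 without FS_CTR replicates 3 and 4). Ndufaf2, a paralog of Ndufa12 that occupies its place during assembly, measured 6.88, 7.20, 7.66 and 7.94 CPM in FS_CTR and 5.77, 5.48, 5.33 and 4.52 CPM in FS_DSS. These groups were also apart (Log2(FC) -0.49, SE 0.14, adjusted p 0.0990). Ndufaf5, which hydroxylates an arginine of Ndufs7, measured 5.14, 6.80, 6.50 and 6.77 CPM in FS_CTR and 3.39, 4.56, 4.81 and 4.36 CPM in FS_DSS. They did not overlap, at a Log2(FC) of -0.56 (SE 0.18, adjusted p 0.117), which was -0.48 and no longer under an unadjusted p of 0.05 without FS_CTR replicates 3 and 4.

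Ndufaf3 was 15.4 ± 3.00 CPM in FS_CTR and 11.9 ± 0.823 CPM in FS_DSS (Log2(FC) -0.37, SE 0.16), and FS_CTR replicate 1, at 11.2 CPM, was within FS_DSS. It was among the 34 at an unadjusted p under 0.05 (edgeR, 0.0426), but not with the replicate block (0.0578) or without FS_CTR replicates 3 and 4 (Log2(FC) -0.18). Ndufaf1, which works in the assembly of the membrane arm, was 11.8 ± 1.44 and 10.9 ± 1.45 CPM (Log2(FC) -0.12, SE 0.14, and -0.22 without the same libraries). Ndufaf6, an early factor of the ubiquinone module, was 3.88 ± 0.648 and 3.45 ± 0.461 CPM (Log2(FC) -0.17, SE 0.20, and -0.26). With all libraries both differences were below their SE. Ndufaf7, a methyltransferase of the mitochondrial matrix, had the most positive value of the members. It measured 7.74, 11.9, 8.23 and 7.81 CPM in FS_CTR and 10.5, 10.8, 11.6 and 10.04 CPM in FS_DSS. A single FS_CTR library, replicate 2, was above the FS_DSS libraries and the other 3 below them (Log2(FC) 0.26, SE 0.16, adjusted p 0.344, and 0.13 without FS_CTR replicates 3 and 4).

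Transcript length went along with these differences across the whole table. In the fit over all libraries, Log2(FC) correlated with the length of the canonical transcript over 12460 genes (Spearman 0.38, across genes, which are not independent replicates), so that short transcripts were lower in FS_DSS. Without FS_CTR replicates 3 and 4 it was 0.18, and over the 42 members it was 0.31 with all libraries and -0.0030 without these. Many complex I subunits are encoded by short transcripts, with a median of 925 bases for accessory, 1669 for core and 2212 for assembly genes, against 3405 for all genes tested. The 10 members under 700 bases had a median of -0.62, beside -0.61 for the 224 genes of that length, and without FS_CTR replicates 3 and 4 these were -0.28 and -0.29. The members with longer canonical transcripts had lower medians than all genes of like canonical length. These were -0.47 against -0.14 for the 8 members from 1500 to under 2500 bases. For the 4 from 2500 to under 4000 bases they were -0.48 against -0.02, and for the 5 of 4000 bases and over -0.35 against 0.10. Without the same libraries these pairs were -0.31 against -0.04, -0.39 against 0.01 and -0.26 against 0.06. Among the latter are Ndufa10 and Ndufb2, both lower in every FS_DSS library than in any FS_CTR library.

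With offsets that took out each library's trend on length, the median of the members was -0.22, and 35 of 42 were negative (52.5% of all genes). Then 19 were lower at an unadjusted p under 0.05 (10.8% of all genes) and 6 at the study's thresholds (4.48% of all genes). The classes came close to each other, at -0.21 for core, -0.23 for accessory and -0.16 for assembly factors. Ndufb2 (-0.64), Ndufa10 (-0.71) and Ndufaf4 (-0.43) were as negative as before or more so, Ndufb11 went to -0.40, and Ndufb8 went from -0.42 to 0.01. With the offsets and the replicate block in a paired fit, the median was -0.21, 35 members were negative (51.5% of all genes), 20 were lower at an unadjusted p under 0.05 (13.2% of all genes) and 5 at the study's thresholds (4.31% of all genes). With the offsets and without FS_CTR replicates 3 and 4, a fit added after the data were seen, the median was -0.20, 35 members were negative (48.9% of all genes), 13 were lower at an unadjusted p under 0.05 (10.9% of all genes), and none met the study's thresholds (4.75% of all genes). The length used is that of 1 annotated transcript per gene, which need not be the form these organoids express. This bears on Ndufa10, Ndufb2, Ndufb9 and Ndufs6, placed among the longer members at 7389, 4389, 4197 and 3593 bases. The length of the expressed forms was not tested.

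**Figure D5:**
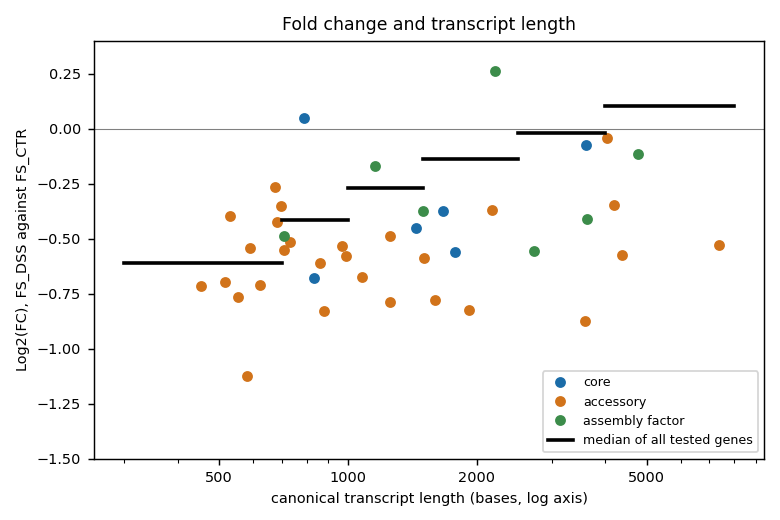
Log2(FC) of 41 tested members against the length of their canonical transcript (log axis, bases), with black bars for the median of all tested genes in 6 length classes. The bars run from -0.61 under 700 bases to 0.10 at 4000 bases and over; short members scatter around them and most of the longer members lie below.

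Levels per kilobase of canonical transcript spread widely although the subunits are parts of a single complex. In FS_CTR they were highest for Ndufa6 (164 CPM per kilobase), Ndufa7 (161) and Ndufb8 (137). Among the 6 core subunits described the levels ranged from 4.43 for Ndufs8 to 86.1 for Ndufs7, with Ndufs1 next lowest at 20.4. Whether the low level of Ndufs8 reflects reads assigned to other entries was not tested. The assembly factors ranged from 2.32 for Ndufaf5 to 10.4 for Ndufaf2. In FS_DSS the levels of Ndufa6, Ndufa7 and Ndufb8 were 112, 110 and 102 CPM per kilobase. Some values are uncertain because other entries share sequence. A transcript of another gene on the same strand matches at least 100 bases at 98% identity or more for 8 members, but only Gm20538 for Ndufb8 (28 counts against 16770) and Gm12251 for Ndufs3 (64 against 12343) had counts in the table. Exons of 18 members overlap a gene on the opposite strand, such as Rbm10 for Ndufb11, Braf for Ndufb2 and Mrpl47 for Ndufb5. The libraries were stranded, but which strand setting the quantification used is not given in the sources used here, so these reads may be mixed.

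The promoters of the members were searched for the letters of factors known to control nuclear respiratory genes. RefSeq windows (GRCm38.p6) from 250 bases before to 50 after the start site were found for 38 of the 44 members, in 40 windows. The letters GCGCA and GCGC with any base between them, bound by nuclear respiratory factor 1 (Nrf1), were present on either strand in 10 windows of 9 members, or 25%, against 4.6% of all 32851 windows. The windows of Ndufa5 with these letters overlap and hold the same site. AAGATGGCG, bound by Yy1, was in 5 (12.5%, against 1.4%). CCGGAAGT for Gabpa and CAAGGTCA for the estrogen-related receptors were in 1 window each (2.5%, against 3.89% and 1.56%). The general promoter elements GGGCGGG (40%, against 25.6%), CCAAT (32.5%, against 37.4%) and TATAAA (12.5%, against 13.6%) were also counted, and no matches of different motifs overlapped in the windows of the members. The members with the Nrf1 letters had a median Log2(FC) of -0.58 and those without of -0.50 (-0.33 and -0.36 without FS_CTR replicates 3 and 4), and a match is a description of the sequence only. The 7 members with these letters before the start site are given here as 60 bases each, 5′ to 3′ on the strand of the gene, with the matched letters in capitals. Ndufa5 and Ndufs5 share one form of the letters, which Ndufs6 holds on the opposite strand, and Ndufa11 and Ndufaf4 share another. Ndufb4 also holds the first form, outside the bases printed.
Ndufa5 (chr6:24527682-24527741, minus strand): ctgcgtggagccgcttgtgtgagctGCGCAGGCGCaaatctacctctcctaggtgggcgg
Ndufa8 (chr2:36049339-36049398, minus strand): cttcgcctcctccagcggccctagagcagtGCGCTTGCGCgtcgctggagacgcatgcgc
Ndufa11 (chr17:56717677-56717736, plus strand): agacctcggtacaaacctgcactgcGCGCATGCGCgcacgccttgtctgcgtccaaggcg
Ndufb4 (chr16:37654525-37654584, minus strand): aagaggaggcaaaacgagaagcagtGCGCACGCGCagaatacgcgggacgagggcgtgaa
Ndufs5 (chr4:123718250-123718309, minus strand): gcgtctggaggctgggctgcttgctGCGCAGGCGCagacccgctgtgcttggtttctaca
Ndufs6 (chr13:73328483-73328542, minus strand): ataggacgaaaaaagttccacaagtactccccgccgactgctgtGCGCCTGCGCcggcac
Ndufaf4 (chr4:24897945-24898004, plus strand): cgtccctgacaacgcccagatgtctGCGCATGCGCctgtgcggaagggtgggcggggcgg

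The factors themselves went both ways, with 4 of 8 negative. Of 8 regulators of nuclear respiratory genes, Esrra was lower at an unadjusted p under 0.05 (Log2(FC) -0.49, SE 0.20, but -0.10 without FS_CTR replicates 3 and 4) and Gabpb1, a partner of Gabpa, was higher (0.22, SE 0.09). The other 6 did not pass that threshold: the coactivators Ppargc1a and Ppargc1b were at -0.47 and -0.40, Pprc1 of the same family at 0.37, Gabpa at 0.17, Yy1 at 0.10 and Nrf1 itself at -0.01. These 6 were at -0.34, -0.54, 0.12, 0.08, 0.05 and 0.07 without FS_CTR replicates 3 and 4, in the same order. The median of the 8 was 0.04 with all libraries. Among other complex I genes outside the symbol rule, 10 of 13 listed were in the table, 8 were negative, and 3 were lower at that p. These were Ecsit (Log2(FC) -0.43), an assembly factor of the membrane arm, Ndufab1 (-0.35), the mitochondrial acyl carrier protein that is also a subunit, and Tmem126b (-0.35, and -0.20 without FS_CTR replicates 3 and 4), which joins Ecsit in assembly. Acad9 and Nubpl were above 0, at 0.12 and 0.06 (-0.08 and -0.03 without these libraries), and the median of the 10 was -0.18.

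The 7 membrane arm subunits encoded by mitochondrial DNA were all lower in FS_DSS, with a median Log2(FC) of -3.01, and the 3 with the smallest p were mt-Nd3, mt-Nd6 and mt-Nd5. Their summed CPM was 10501, 14458, 148704 and 131283 in FS_CTR and 13216, 11209, 8382 and 6248 in FS_DSS. The difference thus rested on FS_CTR replicates 3 and 4. Without them the median was -0.36, none of the 7 was lower at an unadjusted p under 0.05, and FS_CTR replicates 1 and 2 lay near FS_DSS replicates 1 and 2. In FS_CTR replicates 1 to 4, in order, mitochondrially encoded transcripts took 5.10%, 6.98%, 38.7% and 33.3% of the counts. The median nuclear member was 0.16, 0.45, 0.63 and 0.61 above the FS_DSS mean on the log2 scale. The part of the mitochondrial share in the nuclear values was not tested.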

How the data were processed

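RNA-seq of 8 mouse colon organoid samples was analysed from the deposited table. The authors quantified stranded paired-end reads with Salmon 1.10.1 on the GRCm39 transcriptome (release not given in the sources used here) and imported them with tximport; the table they deposited holds estimated counts for each gene symbol, not normalised, here rounded to whole numbers. FS_DSS was compared with FS_CTR by edgeR 4.0.16 (quasi-likelihood test, TMM, filterByExpr, Benjamini-Hochberg over 12729 genes; R 4.3.3). CPM are TMM-scaled. SE is the Log2(FC) divided by the root of the F statistic. Alternatives were DESeq2 1.42.0, limma-voom (limma 3.58.1), other scalings and filters, left-out libraries, length offsets (GENCODE vM39 canonical transcripts, lengths for 97.9% of the genes tested) and a replicate block. The replicate numbers come from the sample titles. Deviations from the group means correlated at 0.352, 0.221, 0.154 and 0.226 between libraries of the same number, all over 0.1. The numbers were therefore taken as pairs in the replicate block, while the reported fit was unpaired. FS_CTR replicate 3 correlated more with FS_DSS replicate 4 (0.188), and FS_CTR replicate 2 with FS_DSS replicate 1 was also over 0.1 (0.142). The test was run on simulated counts. Offsets were run there with the trend known, so the estimation of the length trend was not tested.

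The members, gene lists and tests were chosen with earlier results of these data known. The values of 1 core subunit are not reported here, although counts and medians include it. Named genes were the other core subunits and assembly factors, the 6 accessory subunits with the smallest and the 3 with the largest p, members with a positive Log2(FC) and members removed by the filter; from the other lists, up to 3 with the smallest p in each direction. The precision of single values follows from the counts. Errors of mean CPM are SDs over 4 libraries, and those of Log2(FC) are SEs from the fit.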

Additional observations from a re-analysis of the deposited data

Results flagged for a closer look

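Among 84 sets of 4 libraries (42 members in each group), 3 held a library whose gap to its neighbour, as a share of the range, exceeded Dixon's critical value, where chance alone marks about 1 set in 20. Ndufa7 in FS_DSS replicate 1 was at 62.1 CPM, below the 81.7 to 83.9 CPM of the other FS_DSS libraries. Ndufaf7 in FS_CTR replicate 2 was at 11.9 CPM, above the 7.74 to 8.23 CPM of the other FS_CTR libraries. Ndufb2 in FS_CTR replicate 1 was at 36.2 CPM, below the 43.3 to 43.9 CPM of the other FS_CTR libraries, and still above the highest FS_DSS library (31.3 CPM).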

How the results depend on the processing

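The median Log2(FC) of the members was negative under all 20 alternatives. DESeq2 size factors, TMM without mitochondrially encoded genes, both filters, limma-voom and DESeq2 kept the medians of all members between -0.53 and -0.51. Library totals alone gave -0.14 for all members, -0.19 for accessory subunits, -0.045 for core subunits and 0.0051 for assembly factors, where the sign turned. In that setting 1 member was lower at either threshold. Length offsets gave -0.22, -0.23, -0.21 and -0.16 in the same order, with 19 members lower at an unadjusted p under 0.05 and 6 at the study's thresholds. Without FS_CTR replicates 3 and 4 the medians of all members and of accessory subunits were -0.34 each, with 17 and 2 members. Both together (chosen after seeing the data) gave -0.20, -0.16, -0.24 and -0.20, with 13 and 0 members. Leaving out single libraries gave medians from -0.61 to -0.45, 27 to 35 members lower at an unadjusted p under 0.05, 11 to 22 at the study's thresholds (22 without FS_CTR replicate 1) and 0 to 30 at an adjusted p under 0.05 (30 without FS_CTR replicate 1, 0 without any other).

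The replicate block gave 6 members at an adjusted p under 0.05 and 247 genes in all, and at an unadjusted p under 0.05 it lost Ndufaf3 (0.0578) and gained Ndufb6 (0.0111). Combined with length offsets, the paired fit gave medians of -0.21, -0.22, -0.21 and -0.16 for all, accessory, core and assembly, with 20 members lower at an unadjusted p under 0.05, 5 members and 537 genes at the study's thresholds and 16 genes at an adjusted p under 0.05. DESeq2 gave 26 members and 1410 genes at an adjusted p under 0.05, against 0 and 0. That count over all genes was 2 with library totals alone, 4 with length offsets and no FS_CTR replicates 3 and 4, and 0 to 1185 with single libraries left out (1185 without FS_CTR replicate 1). At the study's thresholds 822 genes were lower and 326 higher; library totals alone gave 144 and 1256, and leaving out single libraries gave 586 to 1070 lower and 178 to 614 higher (178 without FS_DSS replicate 4, 614 without FS_CTR replicate 1).

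The sign of some single members turned. With library totals alone these included Ndufaf1 (0.19), Ndufaf3 (0.0051), Ndufaf6 (0.13), Ndufb3 (0.016), Ndufb6 (0.090), Ndufb9 (0.0060), Ndufc2 (0.024), Ndufs1 (0.21) and Ndufs4 (0.28). With length offsets they were Ndufa4 (0.033, and 0.090 with the block), Ndufaf6 (0.091 and 0.11), Ndufb6 (0.16 and 0.17, and 0.046 without FS_CTR replicates 3 and 4), Ndufb8 (0.0051 and 0.012) and Ndufc2 (0.089 and 0.090, and 0.046 without those libraries). Without those libraries the offsets also turned Ndufa3 (0.044), Ndufa6 (0.0039), Ndufa7 (0.080) and Ndufb4 (0.065). Of these, Ndufa3, Ndufa6, Ndufa7, Ndufaf3, Ndufb3, Ndufb4, Ndufb8, Ndufb9 and Ndufc2 were lower at an unadjusted p under 0.05 in the reported fit. Ndufs4 ranged from -0.077 to 0.022 with single libraries left out, and turned without FS_CTR replicate 2 (0.022) or FS_DSS replicate 1 (0.0069). Ndufs8 ranged from -0.11 to 0.31 with single libraries left out, and turned with limma-voom (-0.040), without FS_CTR replicate 3 (-0.038), replicate 4 (-0.068) or both (-0.23, and -0.083 with length offsets), and without FS_DSS replicate 2 (-0.018) or 3 (-0.11). The cause was not tested for any of these. Counts of 5 to 25 for Ndufa4 and 34 to 163 for Ndufs8 per library limit the precision of these genes.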
